A study of Mus musculus with 21 samples.

Results

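The genes described here are 6 genes that red cell precursors use to make hemoglobin and the red cell membrane: *Hba-a1* and *Hba-a2*, the adult alpha-globin genes, *Hbb-bs* and *Hbb-bt*, the adult beta-globin genes, *Alas2*, which encodes the erythroid form of 5-aminolevulinate synthase, and *Slc4a1*, which encodes band 3, the anion exchanger of the red cell membrane. They were taken by symbol from the table of 56691 genes, and all 6 symbols were found. They were chosen by the lower globin counts of the DOX-treated groups seen in earlier results of the same data, so every comparison that involves DOX is given for them as a description without a p-value. Counts of these genes called in such comparisons stand beside the share of all genes called, and nothing is read from them. Of the 6 genes, 5 had a mean FPKM of at least 0.5 over all libraries and were among the 13990 genes tested, and *Slc4a1* was below that limit. FPKM is the count scaled by gene length and library total.

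Hemoglobin is built from a pair of alpha chains and a pair of beta chains, each holding a heme, the iron-containing ring that binds oxygen. Erythroblasts in the bone marrow transcribe the globin genes at very high rates, and reticulocytes, the young red cells released into blood, still carry globin mRNA, which they lose as they mature. ALAS2 carries out the first step of heme synthesis in these cells, and band 3 exchanges chloride for bicarbonate and anchors the membrane skeleton. Heart muscle itself carries oxygen on myoglobin, the product of *Mb*, and is not a known site of red cell formation in the adult.

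Heart RNA was sequenced from 21 mice in 4 groups, to ask how doxorubicin (DOX), an anthracycline chemotherapeutic, changes cardiac gene expression with and without a tumor. The Control group (5 libraries) was non-tumor-bearing and received normal saline. The DOX group (5 libraries) was non-tumor-bearing and received DOX at 5 mg/kg once a week for 3 weeks. The Tb group (6 libraries) carried subcutaneous tumors of 4T1, a mouse mammary carcinoma line, and received saline, and the Tb-DOX group (5 libraries) carried the same tumors and received DOX. The labels name the tumor line as the source of every library, whereas the study describes heart tissue. The heart muscle genes *Myh6*, *Tnnt2*, *Actc1*, *Ryr2*, *Tnni3* and *Myl2* together made up 39021 to 75239 CPM, counts scaled by library total and TMM factor, in every library, and 6 epithelial genes, which carcinoma cells of this kind express, made up 0.196 to 4.60 CPM. Strain, sex and age are not given in the sources used here, nor is whether blood was removed from the hearts.

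Both adult globin pairs lie in clusters of near-identical copies, and this bears on how finely the counts can be read. In the table, on build GRCm39 per the labels, *Hba-a1* (ENSMUSG00000069919) lies on the plus strand at chr11:32233511-32234465 and *Hba-a2* (ENSMUSG00000069917) at chr11:32246489-32247298. *Hbb-bs* (ENSMUSG00000052305) lies on the minus strand at chr7:103475741-103477303 and *Hbb-bt* (ENSMUSG00000073940) at chr7:103461731-103463203. *Alas2* (ENSMUSG00000025270) lies on the plus strand at chrX:149330371-149353634, and *Slc4a1* (ENSMUSG00000006574) on the minus strand at chr11:102239650-102257029.

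The coding sequences of *Hba-a1* and *Hba-a2* in GENCODE M21 (GRCm38) have 429 bases and differ at 1 of them, C381T, counted from the A of the start codon with the *Hba-a1* base first, and those of *Hbb-bs* and *Hbb-bt* have 444 bases and differ at C417T, with the *Hbb-bs* base first. Both differences are synonymous. They are all of the coding sequence that can tell the copies apart, so the stretches around them are shown with the differing base in capitals, for alpha bases 351 to 411 and for beta bases 387 to 444.
Hba-a1: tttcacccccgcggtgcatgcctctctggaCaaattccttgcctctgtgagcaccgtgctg
Hba-a2: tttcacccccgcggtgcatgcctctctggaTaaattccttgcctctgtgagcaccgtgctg
Hbb-bs: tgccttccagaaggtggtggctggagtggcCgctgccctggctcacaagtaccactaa
Hbb-bt: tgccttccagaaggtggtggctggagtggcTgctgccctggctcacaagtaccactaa

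Reads of the study were 150 bases long. Of the 150-base windows of the *Hba-a1* transcript, 48.4% occur unchanged in *Hba-a2*, and of those of *Hba-a2*, 65.7% occur in *Hba-a1*. For *Hbb-bs* and *Hbb-bt* the shares were 58.7% and 50.7%. How reads that match both copies were counted is not given in the sources used here, so the split between copies is uncertain and the sum over the copies is the firmer measure. The beta-globin cluster also differs between mouse strains, and the copies present in these mice were not checked.

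Control replicate 3 and DOX replicate 2 held the most globin RNA of their groups and stood apart by Dixon's criterion for *Hba-a2* and *Hbb-bt*, though not for *Hba-a1* or *Hbb-bs*, and results that rest on them are given with and without them. Summed over the 4 globin genes, Control replicates 1 to 5 held 199, 247, 776, 226 and 388 CPM, and DOX replicates 1 to 5 held 3.86, 127, 19.1, 53.3 and 10.3 CPM. The Tb libraries held 357 to 809 CPM (median 533), and Tb-DOX replicates 1 to 5 held 2.19, 9.09, 8.98, 26.8 and 18.8 CPM. Globin RNA was thus lower in every DOX library than in every Control library, and lower in every Tb-DOX library than in every Tb library. The plot of the summed level by library shows the same split. Control replicates 3 and 5 lay within the range of the Tb libraries, and the DOX libraries spanned 33.1-fold, against 3.90-fold in Control, 2.26-fold in Tb and 12.2-fold in Tb-DOX. In bulk tissue, fewer cells that carry a transcript and less of it per cell cannot be told apart.

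**Figure D1:**
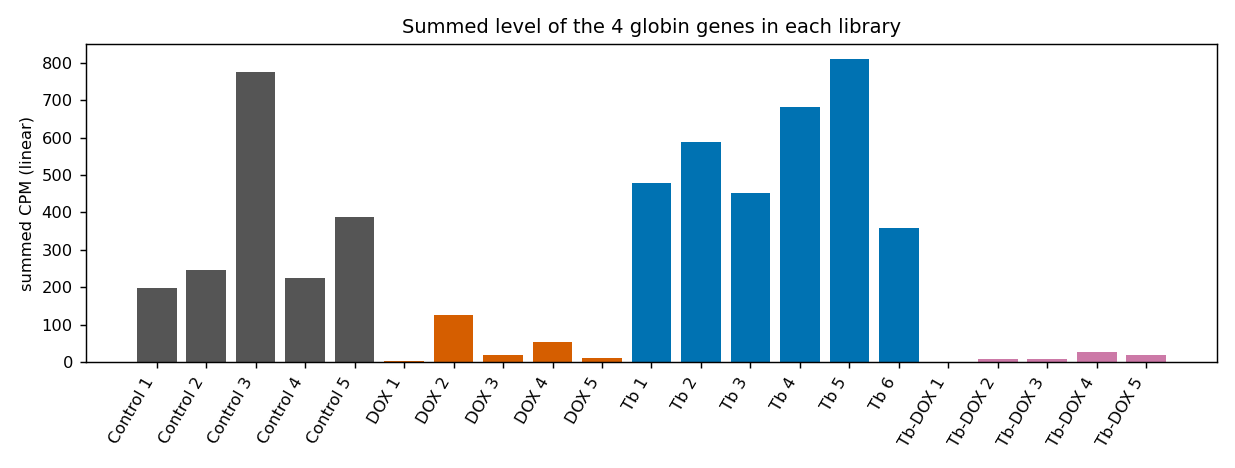
Summed level of Hba-a1, Hba-a2, Hbb-bs and Hbb-bt in each of the 21 libraries, in CPM on a linear axis from 0, with 1 bar per library colored by group. The Tb-DOX bars (2.19 to 26.8 CPM) lie far below the Tb bars (357 to 809 CPM), and the DOX bars (3.86 to 127 CPM) below the Control bars (199 to 776 CPM).

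*Hbb-bs* was the most abundant of the 6 genes in each group by mean FPKM. Its level was 170.3, 209, 708, 195 and 327 FPKM in Control replicates 1 to 5 and 2.85, 82.7, 10.6, 29.1 and 6.13 FPKM in DOX replicates 1 to 5. It was 330 to 631 FPKM in Tb (median 449) and 1.58, 6.02, 6.64, 26.4 and 14.6 FPKM in Tb-DOX replicates 1 to 5. The highest DOX library, replicate 2, was below the lowest Control library, and the highest Tb-DOX library was below the lowest Tb library by a wider margin. Group means were 322 ± 224 (SD, n = 5) in Control, 26.3 ± 33.1 (n = 5) in DOX, 478 ± 124 (n = 6) in Tb and 11.04 ± 9.78 (n = 5) in Tb-DOX.

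*Hba-a1* followed the same order of groups. Its level was 71.1, 89.8, 330.5, 73.7 and 156 FPKM in Control replicates 1 to 5 and 1.42, 54.3, 13.4, 29.8 and 5.36 FPKM in DOX replicates 1 to 5. It was 171 to 300 FPKM in Tb (median 212) and 1.28, 5.24, 4.55, 11.9 and 7.52 FPKM in Tb-DOX replicates 1 to 5. Neither DOX-treated group overlapped its own saline group, while Tb overlapped Control through Control replicate 3 and Tb-DOX overlapped DOX. Mean levels were 144 ± 110, 20.8 ± 21.6, 225 ± 52.3 and 6.10 ± 3.95 FPKM (SD) in Control, DOX, Tb and Tb-DOX.

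The second copies were counted at far lower levels. *Hbb-bt* had 6.45, 10.6, 37.5, 12.5 and 14.0 FPKM in Control, 0.17, 5.93, 0.29, 0.30 and 0.30 FPKM in DOX, 16.7 to 37.0 FPKM in Tb (median 25.4) and 0, 0.53, 0.32, 0.65 and 1.85 FPKM in Tb-DOX. DOX replicate 2, with 61 counts, lay just below the lowest Control library in FPKM and just above it in CPM (4.73 against 4.64), and the other DOX libraries had 2 or 3 counts. *Hba-a2* had 14 to 87 counts in Control and 33 to 92 in Tb, but 0, 8, 0, 1 and 0 counts in DOX and 0, 0, 2, 0 and 0 in Tb-DOX. A count of 0 allows up to 3 counts per library, so the absence of *Hba-a2* reads at this depth is not the absence of the transcript.

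*Alas2* was counted 83, 112, 365, 101 and 139 times in Control replicates 1 to 5 and 13, 65, 22, 45 and 20 times in DOX replicates 1 to 5. It had 162 to 499 counts in Tb and 4, 8, 2, 37 and 12 counts in Tb-DOX replicates 1 to 5. As for the globins, the libraries of each DOX-treated group were all below those of its saline group, with Control replicate 3 and DOX replicate 2 the highest of their groups. Its mean levels were 4.34 ± 2.92, 0.94 ± 0.628, 7.51 ± 2.39 and 0.334 ± 0.384 FPKM (SD) in Control, DOX, Tb and Tb-DOX.

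*Slc4a1* was near the limit of detection outside the Tb group. It had 2, 4, 18, 2 and 1 counts in Control replicates 1 to 5, 0, 0, 0, 3 and 0 in DOX, 0, 0, 1, 0 and 0 in Tb-DOX, and 17 to 56 counts in Tb. Per length it was the least abundant of the 6 genes in each group, at 0.072 ± 0.0901 FPKM (SD, n = 5) in Control and 0.44 ± 0.184 FPKM (n = 6) in Tb. In each of the 4 groups the order of the genes by mean FPKM, from high to low, was *Hbb-bs*, *Hba-a1*, *Hbb-bt*, *Alas2*, *Hba-a2* and *Slc4a1*. In Tb all neighbors in this order differed by more than the larger SD of the pair. In Control, DOX and Tb-DOX *Hbb-bs* and *Hba-a1*, and also *Hbb-bt* and *Alas2*, differed by less than that. The same held for *Alas2* and *Hba-a2* in Control (4.34 ± 2.92 against 2.996 ± 2.88 FPKM) and Tb-DOX, for *Hba-a1* and *Hbb-bt* in DOX, and for *Hba-a2* and *Slc4a1* in DOX and Tb-DOX. In DOX the place of *Hbb-bt* above *Alas2* rested on replicate 2, and the medians were 0.30 and 0.61 FPKM.

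**Figure D2:**
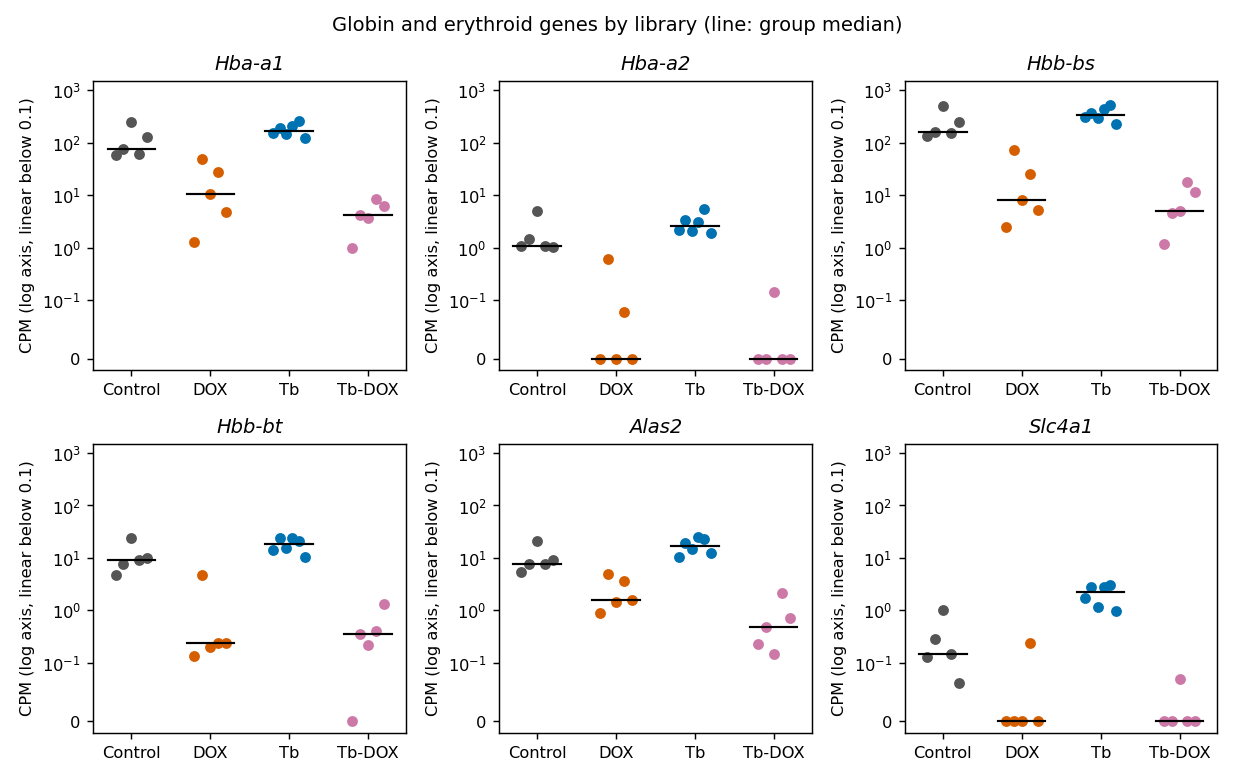
Level of each of the 6 genes in every library, in CPM on a log axis that turns linear below 0.1, with 1 point per library and a line at the group median. For every gene the Tb-DOX points lie below all Tb points, and for Slc4a1 all but 1 of the DOX points and all but 1 of the Tb-DOX points lie at 0.

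In non-tumor-bearing mice, mean CPM was lower with DOX than in Control by 6.01-fold for *Hba-a1*, 13.8-fold for *Hba-a2*, 10.6-fold for *Hbb-bs*, 9.98-fold for *Hbb-bt* and 4.03-fold for *Alas2*. The fitted log2 fold changes of DOX against Control were −2.60 (SE 0.621), −3.78 (SE 0.768), −3.41 (SE 0.700), −3.34 (SE 0.708) and −2.03 (SE 0.492) in that order. All 5 tested genes were called lower, which here takes an adjusted p under 0.05 in edgeR's quasi-likelihood test together with a log2 fold change of 1 or more in size, where 5.79% of all 13990 genes were. This contrast is part of what chose the genes, so nothing is read from that count. The libraries of 4 of the 6 genes did not overlap between the groups, which held for 13.3% of all tested genes in this direction.

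The size of the DOX difference in non-tumor-bearing mice turned on the pair of libraries named above. Without DOX replicate 2 the fitted values were −3.37 for *Hba-a1*, −4.56 for *Hbb-bs* and −2.45 for *Alas2*. *Hba-a2* and *Hbb-bt* were then at or below 3 counts in every remaining DOX library, and against that floor they were at least 8.74-fold and at least 50.1-fold lower than in Control. Without Control replicate 3 the fitted values were −2.09 for *Hba-a1*, −3.04 for *Hba-a2*, −2.95 for *Hbb-bs*, −2.82 for *Hbb-bt* and −1.57 for *Alas2*. With each library left out in turn, leaving out either of these moved the values furthest. Mean CPM of *Slc4a1* was 0.331 in Control and 0.0484 in DOX, and with DOX at or below 3 counts in every library its level was at least 1.48-fold lower. That bound rests on Control replicate 3, without which mean CPM in Control was 0.156, below the floor of 0.223 CPM in DOX, so that no bound can be given.

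In tumor-bearing mice the fitted differences of *Hba-a1*, *Hbb-bs* and *Alas2* were larger, also with any 1 library left out, whereas for *Hbb-bt* the order rested on DOX replicate 2, without which the bound in non-tumor-bearing mice was 50.1-fold. Compared with Tb, mean CPM in Tb-DOX was 38.2-fold lower for *Hba-a1*, 45.2-fold lower for *Hbb-bs*, 39.6-fold lower for *Hbb-bt* and 23.8-fold lower for *Alas2*. Taken against the 3-count floor, *Hba-a2* was at least 16.6-fold lower and *Slc4a1* at least 11.5-fold lower. Fitted log2 fold changes were −5.25 (SE 0.702) for *Hba-a1*, −5.49 (SE 0.768) for *Hbb-bs*, −5.28 (SE 0.768) for *Hbb-bt* and −4.53 (SE 0.548) for *Alas2*. All 5 tested genes were called lower, against 0.665% of all genes, and for all 6 genes the libraries of the groups did not overlap, against 2.23%. As in non-tumor-bearing mice, the genes were chosen on these counts, so nothing is read from this. Leaving out any 1 library moved *Hba-a1* between −5.58 and −4.98 and *Hbb-bs* between −6.03 and −5.21. *Hbb-bt* reached −6.17 without Tb-DOX replicate 5 and *Alas2* reached −5.43 without Tb-DOX replicate 4, the highest library of that group for each gene.

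The DOX difference in tumor-bearing mice minus that in non-tumor-bearing mice, the interaction, was −2.65 (SE 0.859) on the log2 scale for *Hba-a1*, −2.77 (SE 1.46) for *Hba-a2*, −2.08 (SE 0.918) for *Hbb-bs*, −1.93 (SE 1.05) for *Hbb-bt* and −2.50 (SE 0.720) for *Alas2*. These are descriptions, since the interaction of the globin genes was also among the known results. *Hba-a2* had 0 to 2 counts per library in Tb-DOX, so its value depends on the fit's handling of counts near 0. Its bound of at least 16.6-fold in tumor-bearing mice stands beside 13.8-fold in non-tumor-bearing mice, so a larger difference is not secure for this gene. When each library was left out in turn the value ran from −3.16 to −1.89 for *Hba-a1*, from −4.80 to −0.34 for *Hba-a2*, from −2.62 to −0.94 for *Hbb-bs* and from −3.41 to −2.09 for *Alas2*. For *Hbb-bt* it ran from −2.83 to 0.45, and its sign thus rested on DOX replicate 2. It is made up of the difference between the saline groups and that between the DOX-treated groups, which are given next.

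Between the saline groups, the 4 globin genes and *Alas2* were not shown to differ. The genes were chosen by the DOX-treated groups, but the interaction, which includes this comparison, was also among the known results. The p-values of single genes in this and the next paragraph are therefore descriptive. The log2 fold change of Tb against Control was 0.66 (SE 0.556, adjusted p = 0.518, edgeR quasi-likelihood test) for *Hba-a1* and 0.58 (SE 0.607, adjusted p = 0.608) for *Hbb-bs*. It was 0.64 (SE 0.525) for *Hba-a2*, 0.71 (SE 0.562) for *Hbb-bt* and 0.79 (SE 0.430, adjusted p = 0.302) for *Alas2*. With edgeR, 0 of the 5 were called, 0 had an unadjusted p under 0.05, and DESeq2 also called 0, where edgeR called 3.48% of all genes higher and 0.122% lower. The libraries overlapped for all 6 genes, whereas 4.21% of tested genes were higher without overlap. Without Control replicate 3 the 5 values were 1.04 to 1.39, and the smallest adjusted p was 0.121.

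*Slc4a1* differed more between the saline groups than the other genes did. Its mean CPM was 2.10 ± 0.934 (SD, n = 6) in Tb and 0.331 ± 0.399 (n = 5) in Control, a 6.36-fold ratio, and the libraries overlapped only through the 18 counts of Control replicate 3, above the 17 counts of Tb replicate 6. In the edgeR fit without a filter on low values, the fit that includes it, its log2 fold change was 2.60 (SE 0.598, adjusted p = 0.00577). Its share of the red cell RNA differed as well. The ratio of *Slc4a1* to summed globin FPKM was 0.000423 to 0.000782 in Tb and 4.03e-05 to 0.000217 in Control, with no overlap and a 4.59-fold difference of the geometric means. The two-sided exact permutation p was 0.00216, the smallest that 462 arrangements allow, and 0.0368 after adjustment over the 17 ratio comparisons computed. With any Control library left out the smallest p allowed no longer passes that adjustment (adjusted p = 0.081), and the Control ratios rest on 1 to 18 counts.

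Between the DOX-treated groups, Tb-DOX was below DOX in mean CPM by 4.02-fold for *Hba-a1*, 2.84-fold for *Hbb-bs*, 2.41-fold for *Hbb-bt* and 3.42-fold for *Alas2*, but the libraries of all 6 genes overlapped, where 6.83% of tested genes were lower without overlap. Fitted log2 fold changes were −1.997 (SE 0.653), −1.495 (SE 0.688), −1.22 (SE 0.885) and −1.72 (SE 0.576). Of the 5 tested genes 2 were called lower, *Hba-a1* and *Alas2*, where 1.25% of all genes were, and again nothing is read from this. DOX replicate 2 carried much of this difference. Without it the values were −1.22 for *Hba-a1*, −0.35 for *Hbb-bs* and −1.29 for *Alas2*, and neither *Hba-a1* nor *Alas2* was called. The value of *Hbb-bt* turned from −1.22 to 1.17, at 2 or 3 counts in each remaining DOX library and 0 to 22 in Tb-DOX, so its direction rested on that library. With each library left out in turn *Hba-a1* was called in 15 of 21 fits and *Alas2* in 13 of 21. Without Tb-DOX replicate 4 *Alas2* was at −2.62.

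The ratios of summed alpha- to summed beta-globin and of *Alas2* to globin were higher in every DOX library than in every Control library, whereas the ratio of *Hbb-bt* to *Hbb-bs* overlapped between all groups. The ratio of summed alpha- to summed beta-globin FPKM was 0.411, 0.420, 0.454, 0.363 and 0.462 in Control replicates 1 to 5 and 0.485, 0.622, 1.22, 1.02 and 0.835 in DOX replicates 1 to 5. It was 0.423 to 0.503 in Tb and 0.820, 0.803, 0.691, 0.443 and 0.460 in Tb-DOX. The computed ratio was thus higher in every DOX library than in every Control library, with geometric means of 0.793 against 0.421, while Tb-DOX (0.621) and Tb (0.458) overlapped. The lowest DOX value, 0.485 in replicate 1, came from 19 alpha- and 38 beta-globin counts and lay close to 0.462 in Control replicate 5. At so few counts the separation of that library is not secure. Because the levels that make up these ratios chose the genes, they are given without a test. Between the saline groups the ratio did not differ detectably (0.458 in Tb against 0.421 in Control, exact permutation p = 0.0779, adjusted p = 0.251).

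The *Alas2* to globin ratio behaved in a like way. It was 0.00763 to 0.0109 in Control and 0.0130 to 0.0741 in DOX, with no overlap and geometric means of 0.00919 and 0.0309. It was highest in DOX replicates 1 and 5, the libraries with the least globin RNA of the group. In Tb it was 0.00722 to 0.01202 and in Tb-DOX 0.00645 to 0.0358, which overlapped. Tb and Control did not differ detectably (0.0101 against 0.00919, exact permutation p = 0.396, adjusted p = 0.612). Between copies of a pair, the saline groups were close: *Hba-a2* stood to *Hba-a1* as 0.0201 in Tb and 0.0200 in Control (exact permutation p = 0.972), and *Hbb-bt* to *Hbb-bs* as 0.0548 and 0.0491 (p = 0.323, adjusted p = 0.548). The *Hbb-bt* to *Hbb-bs* ratio had geometric means of 0.0411 in DOX and 0.0537 in Tb-DOX, with wider ranges of 0.0121 to 0.0748 and 0.0254 to 0.130 that overlapped those of Control (0.0381 to 0.0643) and Tb (0.0438 to 0.0694). A ratio of *Slc4a1* to globin in the DOX-treated groups is set by the pseudocount of 0.5 counts, since most of their libraries have 0 counts.

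**Figure D3:**
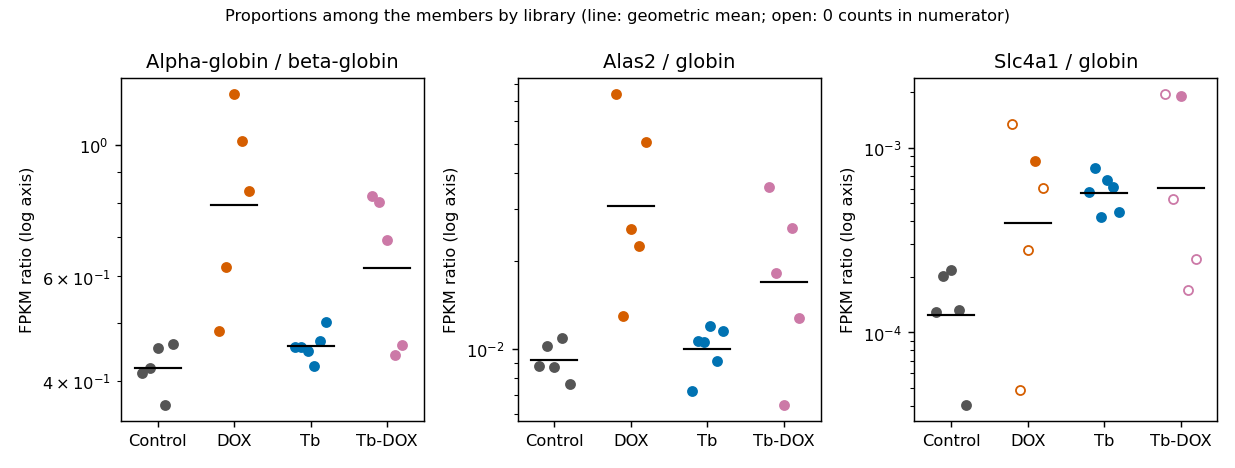
Ratios of FPKM in every library on log axes: summed alpha- to summed beta-globin, Alas2 to summed globin and Slc4a1 to summed globin, with a line at each group's geometric mean and open points where the numerator had 0 counts. The DOX points of the first and second panels (0.485 to 1.22 and 0.0130 to 0.0741) lie above all Control points, and in the third panel all Tb points (0.000423 to 0.000782) lie above all Control points.

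Across the 21 libraries the genes varied together. Pearson's r of log2 CPM between pairs of the 6 genes was 0.795 to 0.990, which the difference between groups by itself makes large. With the group means removed, the 15 pairs correlated at 0.150 to 0.965. The highest was *Hba-a1* with *Hbb-bs*, and the lowest was *Hbb-bt* with *Slc4a1*. Pairs with *Slc4a1*, at counts that are mostly 0 to 4 outside Tb, correlated at 0.150 to 0.551, and *Hba-a2* correlated with *Alas2* at 0.416 and with the other globin genes at 0.646 to 0.660. All 21 points share the library and its scaling, and no test was made.

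The 250 bases before the start of each of the 6 genes were read from RefSeq (GRCm38.p6), where 5 of the 6 have an entry. The searched motifs, on both strands, were the site of the erythroid factor GATA1 (AGATAA or AGATAG, and likewise TGATAA or TGATAG), the CACCC box bound by KLF1 and related factors (CCNCNCCC) and the TATA box (TATAAA). Of 32851 promoters of 300 bases, 29.8%, 49.5% and 13.6% hold them. The promoters of *Hba-a1* (chr11:32283422-32283671, plus strand), *Hbb-bs* (chr7:103827929-103828178, minus strand), *Hbb-bt* (chr7:103813924-103814173, minus strand) and *Alas2* (chrX:150547167-150547416, plus strand) are shown from 5′ to 3′ with the matches in capitals.
Hba-a1: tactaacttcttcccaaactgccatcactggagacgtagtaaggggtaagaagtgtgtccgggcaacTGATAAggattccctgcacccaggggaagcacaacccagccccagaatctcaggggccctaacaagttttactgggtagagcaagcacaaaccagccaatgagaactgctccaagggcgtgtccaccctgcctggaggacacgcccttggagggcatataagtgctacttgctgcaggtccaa
Hbb-bs: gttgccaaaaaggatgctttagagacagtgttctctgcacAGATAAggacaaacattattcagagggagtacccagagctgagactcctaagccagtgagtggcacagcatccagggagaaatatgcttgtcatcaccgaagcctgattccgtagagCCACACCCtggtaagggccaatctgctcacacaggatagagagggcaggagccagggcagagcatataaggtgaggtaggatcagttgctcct
Hbb-bt: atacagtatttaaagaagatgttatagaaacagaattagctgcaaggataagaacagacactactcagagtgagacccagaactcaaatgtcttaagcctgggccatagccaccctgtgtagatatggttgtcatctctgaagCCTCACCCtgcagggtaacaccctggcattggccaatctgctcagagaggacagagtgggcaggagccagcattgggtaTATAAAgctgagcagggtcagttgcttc
Alas2: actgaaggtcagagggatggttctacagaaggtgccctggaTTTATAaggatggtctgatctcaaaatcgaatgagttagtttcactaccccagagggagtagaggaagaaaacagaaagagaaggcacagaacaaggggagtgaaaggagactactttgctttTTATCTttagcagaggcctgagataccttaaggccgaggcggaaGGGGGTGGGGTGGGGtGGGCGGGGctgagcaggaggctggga

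Counted from the start, *Hba-a1* had TGATAA at −183 and *Hba-a2*, whose promoter is not shown, had it at −186. *Hbb-bs* had AGATAA at −210 and a CACCC match at −93, *Hbb-bt* a CACCC match at −107 and TATAAA at −28, and *Alas2* AGATAA at −86, 4 overlapping or adjacent CACCC matches and TATAAA at −209, all on the minus strand. A match is a run of letters and does not show that a factor binds there.

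Other genes of red cell formation were taken from lists. Of 67 genes in 5 lists (other globins, heme synthesis, red cell membrane, erythroid regulators, and red cell enzymes with reticulocyte maturation), 66 were in the table and 40 were tested. With DOX in non-tumor-bearing mice 0 of the 40 were called higher and 2 lower, against 4.16% and 5.79% of all genes, and their median log2 fold change was −0.04 against 0.00 over all tested genes. At any fold, 13 of the 40 passed the adjusted p as lower, where 18.2% of all genes did. In Tb-DOX against Tb 0 were called higher and 1 lower, against 0.443% and 0.665% of all genes, with a median of −0.13 against −0.02, and 3 were lower at any fold, against 2.54%. In Tb against Control 1 was called higher and 1 lower, against 3.48% and 0.122%, with a median of −0.08 against −0.01. Unadjusted p under 0.05 in edgeR was reached by 8 genes higher and 15 lower, 3 higher and 7 lower, and 6 higher and 8 lower in these comparisons, and DESeq2 called 2, 1 and 2 of the 40.

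Among the called genes, *Ube2l6*, which encodes a ubiquitin and ISG15 conjugating enzyme listed for reticulocyte maturation, fell with DOX in both states, with a log2 fold change of −1.35 (SE 0.210, adjusted p = 7.1e-05) in non-tumor-bearing and −1.02 (SE 0.196, adjusted p = 0.0051) in tumor-bearing mice. The second call was lost in 3 of the 21 fits without 1 library (Tb replicate 2, Tb replicate 4 or Tb-DOX replicate 5), where the adjusted p still passed and the fold, at −0.91 without Tb replicate 4, did not. *Tfrc*, the transferrin receptor through which cells take up iron, fell with DOX (log2 fold change −1.34, SE 0.340, adjusted p = 0.00426) in non-tumor-bearing mice and was at −0.25 (adjusted p = 0.715) in Tb-DOX against Tb. It was also lower, at −1.07 (SE 0.319, adjusted p = 0.0487), in Tb against Control, a call that was lost in 15 of the 21 fits without 1 library. *Nfe2*, a transcription factor of erythroid cells, megakaryocytes and neutrophils, rose in Tb by 6.57 (SE 0.777, adjusted p = 5.1e-06). It had 0 to 4 counts per library in Control, so the size of that value depends on the fit's handling of counts near 0. Both *Tfrc* and *Ube2l6* are expressed in many tissues, and *Tfrc* had a mean of 32.4 ± 12.3 FPKM (SD, n = 5) in Control hearts.

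All 14 genes of the heme synthesis and transport list were tested, and none reached a log2 fold change of 1 with a passing p in any comparison by edgeR or DESeq2. Smaller DOX differences passed the adjusted p in non-tumor-bearing mice for 6 of the 14, all lower, where 18.2% of all genes were lower at any fold. They were *Alad* (−0.87, adjusted p = 0.000566), *Cpox* (−0.79), *Uros* (−0.71), *Slc25a37* (−0.57), the importer of iron into mitochondria, *Abcb10* (−0.51) and *Tmem14c* (−0.48), the most abundant of the list. In Tb-DOX against Tb only *Slc25a37* of the 14 passed, at −0.55 (adjusted p = 0.00563), where 2.54% of all genes were lower at any fold. These differences were far smaller than that of *Alas2*, the erythroid enzyme of the same pathway.

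Among other globins, *Mb* stayed at 5781 ± 1381 FPKM (SD, n = 5) in Control and 5028 ± 394 FPKM (n = 5) in DOX (log2 fold change −0.05, adjusted p = 0.797). *Cygb*, a globin of fibroblast-like cells, was lower, at −0.94 (adjusted p = 8.41e-05), under the fold needed for a call. The red cell membrane genes *Epb42* and *Rhag* and the erythroid master regulators *Gata1* and *Klf1* had at most 11 counts in any library. Of the membrane list, *Aqp1*, a water channel of red cells and endothelium, was its most abundant gene and was lower in Tb than in Control, at −0.93 (adjusted p = 5.91e-05). The 5 genes next to the alpha-globin cluster (*Nprl3*, *Mpg*, *Rhbdf1*, *Snrnp25* and *Polr3k*) were called in 0 of the comparisons by edgeR or DESeq2, with 2 of them at an unadjusted p under 0.05 in DOX against Control. Below the fold needed for a call, *Mpg* passed the adjusted p in DOX against Control (0.74, adjusted p = 0.00758) and *Nprl3* in Tb-DOX against DOX (−0.38, adjusted p = 0.0413).

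**Figure D4:**
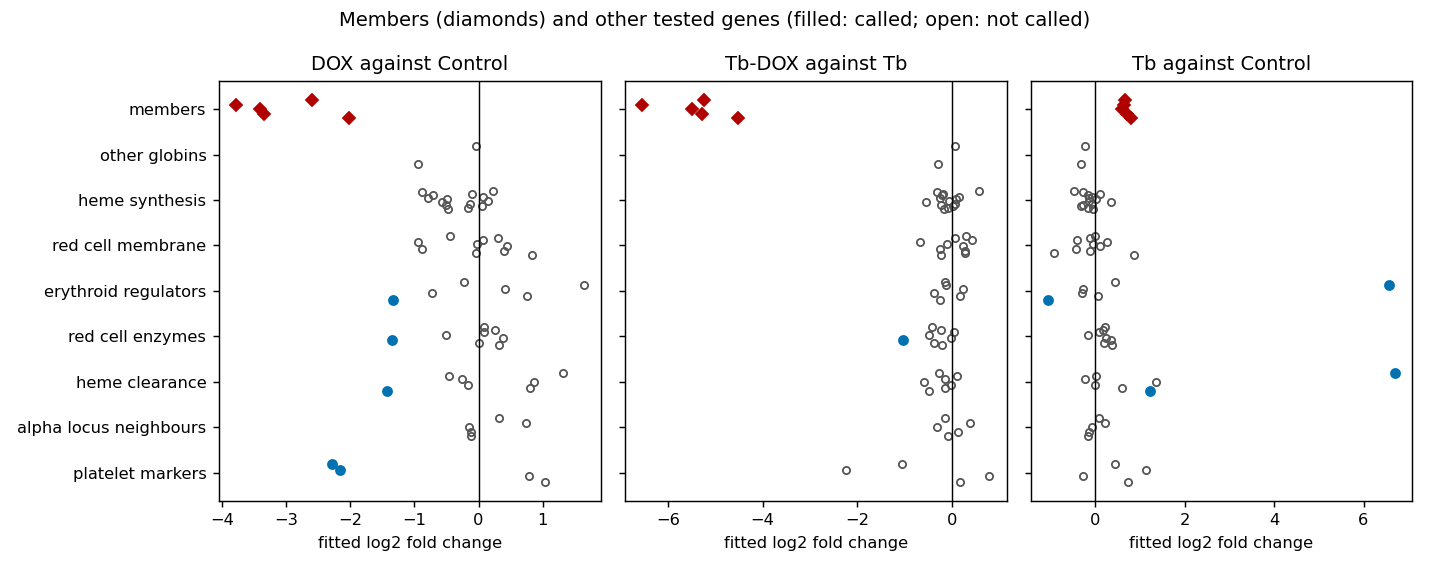
Fitted log2 fold changes in DOX against Control, Tb-DOX against Tb and Tb against Control, with 1 point per tested gene, diamonds for the 5 tested globin and erythroid genes, filled points for other called genes and open points for genes not called. The diamonds lie at −3.78 to −2.03 and at −6.55 to −4.53 in the first and second panels, where the other erythroid lists lie around 0, and at 0.58 to 0.79 in the third. The value of −6.55 is that of Hba-a2, which had 0 to 2 counts per library in Tb-DOX.

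Genes for the clearance of free hemoglobin and for iron export were read as well. *Hp*, haptoglobin, which binds free hemoglobin and is also made by neutrophils and as an acute-phase protein, rose in Tb against Control by 6.71 (SE 0.692, adjusted p = 9.4e-07). *Slc40a1*, the iron exporter ferroportin of macrophages, fell with DOX (−1.43, SE 0.252, adjusted p = 0.000214) and rose in Tb by 1.22 (SE 0.232, adjusted p = 0.0015). Of the 7 tested genes of this list, 0 were called in Tb-DOX against Tb by edgeR or DESeq2, and 1 had an unadjusted p under 0.05.

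RNA of other blood cells moved with the groups, and its part in the results above was not tested. Of 10 platelet genes 4 were tested, and with DOX in non-tumor-bearing mice *Pf4* (−2.29, adjusted p = 0.000243) and *Ppbp* (−2.17, adjusted p = 0.0431) fell, both encoding chemokines of platelet granules, while the other 2 were at 0.79 (*Gp1ba*, adjusted p = 0.0261) and 1.03 (*Clec1b*, adjusted p = 0.0567), of which DESeq2 called *Clec1b*. The *Ppbp* call was lost in 8 of the 21 fits without 1 library. In Tb-DOX against Tb *Pf4* was at −1.06 (adjusted p = 0.083) and *Ppbp* at −2.24 (adjusted p = 0.0595), and 0 of the 4 were called by edgeR and 2 by DESeq2. The summed platelet list was 9.81 to 14.9 CPM in Control, 8.19 to 18.5 in DOX, 11.9 to 30.5 in Tb and 12.01 to 16.5 in Tb-DOX.

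All 12 neutrophil genes were tested. In edgeR, 6 were called higher in DOX against Control, all 12 in Tb against Control, and 0 in either direction in Tb-DOX against Tb, where 2 had an unadjusted p under 0.05, both lower, and DESeq2 called 1 (*Ly6g*). The call of *Mmp9* in DOX against Control was lost in 7 of 21 fits with 1 library left out. The sum of the 12 genes was 4.12 to 30.6 CPM in Control, 13.8 to 81.4 in DOX, 634 to 6010 in Tb and 951 to 3996 in Tb-DOX, so the ranges of Tb and Tb-DOX overlapped. The cardiomyocyte sum was 45506 to 61353 CPM in Control and 64998 to 75239 in DOX, and 39021 to 47751 in Tb and 53141 to 65554 in Tb-DOX. The cardiomyocyte sum was thus higher with DOX in both states, at differences far smaller than those of the globins. Its genes did not rise alike. The log2 fold changes in DOX against Control and Tb-DOX against Tb were 0.96 and 0.76 for *Tnnt2* and 0.43 and 0.42 for *Myh6*. These values passed the adjusted p. *Actc1*, *Tnni3* and *Myl2*, at 0.13 to 0.41, did not, and neither did *Ryr2*, at −0.13 and −0.24. Whether the share of RNA from heart muscle differed was not tested.

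The genes most like the 6 over the 21 libraries, by Pearson's r with the mean z-score of their log2 CPM, were *H2-Ea* (0.879), *H2-Ab1* (0.867), *Mien1* (0.864), *Rcn2* (0.861), *H2-Aa* (0.859), *Pdia6* (0.856), *Cd74* (0.856), *Tent5c* (0.835), *Trappc2l* (0.831) and *Vti1b* (0.828). Of these, *H2-Ea*, *H2-Ab1*, *H2-Aa* and *Cd74* encode MHC class II chains and their invariant chain, which antigen-presenting cells express. *Cd74* had a mean of 58.0 ± 13.9 CPM (SD, n = 5) in Control, 8.19 ± 4.64 in DOX, 57.6 ± 18.7 (n = 6) in Tb and 10.4 ± 4.10 in Tb-DOX. With the group means removed, the correlation was 0.117 to 0.590 over the 10 genes and highest for *Tent5c*, so most of the likeness lay between groups. *Tent5c*, a cytoplasmic poly(A) polymerase, had 3.46 ± 1.94, 1.56 ± 0.434, 8.23 ± 4.18 and 2.10 ± 0.921 CPM (SD) in Control, DOX, Tb and Tb-DOX.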

How the data were processed

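Heart mRNA of 21 mice was sequenced, and each library's group and number follow the labels. The labels name oligo(dT) beads or rRNA depletion for the libraries and the study's methods oligo(dT) beads, and pairs of 150-base reads were sequenced. Per the labels, processing used cutadapt, FastQC, HISAT2, HTSeq 0.6.1, DESeq2 1.34.0 and build GRCm39. The authors deposited 1 table that gives, for each gene in each library, the read count and the FPKM, and FPKM equaled count per length and library total in 100% of values (tolerance 0.006). Fold changes and p-values of the authors were not used. Totals were 13521200 to 18601445 counts per library, and 34543 of 56691 genes were above 0. Intervals and floors cover counting error only.

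The 6 genes, the lists and the tests were chosen with earlier results of these data known. The counts went into edgeR 4.0.16 under R 4.3.3 (TMM scaling, quasi-likelihood F tests, all 4 groups in 1 fit) over 13990 genes whose mean FPKM reached 0.5, with Benjamini-Hochberg adjustment. A call took an adjusted p under 0.05 together with a log2 fold change of 1 or more in size. Ratios used 0.5 counts as pseudocount, at least 20 counts and two-sided exact permutation tests. Where no library of a group exceeded 3 counts, folds are bounds against 3 counts per library. The fit was tested on simulated data. Named genes were the 6 genes, the most abundant gene and up to 3 called genes of each list per comparison, and the 10 most alike genes; others, such as *Alad*, *Cpox*, *Uros*, *Slc25a37*, *Abcb10*, *Cygb*, *Epb42*, *Rhag*, *Gata1* and *Klf1*, were named after their values were seen. The lists also held B and T cell and epithelial markers, each with 1 tested gene. *Ahsp* was not analysed here, and some listed genes are not reported here. After removal of group means, libraries that share a number correlated at −0.219 to 0.194, so the numbers were not treated as pairs. That replicates came from separate mice is taken from the study's description. Alternatives were median-ratio scaling, no filter, DESeq2 1.42.0, a replicate block, a pseudocount of 1, each library left out in turn and, added after the data were seen, Control replicate 3 and DOX replicate 2 left out together.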

Additional observations from a re-analysis of the deposited data

Results flagged for a closer look

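Of 42 gene or ratio groups of 5 or 6 libraries checked, 10 had 1 library far from the others by Dixon's criterion, where chance gives about 1 in 20. Control replicate 3 was far above its group for *Hba-a2* (4.981 CPM), *Hbb-bt* (24.22 CPM), *Alas2* (20.9 CPM) and *Slc4a1* (1.03 CPM). DOX replicate 2 was far above its group for *Hba-a2* (0.6205 CPM) and *Hbb-bt* (4.731 CPM). *Slc4a1* in DOX replicate 4 (0.2418 CPM, 3 counts), *Slc4a1* in Tb-DOX replicate 3 (0.07244 CPM, 1 count) and *Hba-a2* in Tb-DOX replicate 3 (0.1449 CPM, 2 counts) stood apart in groups otherwise at or near 0 counts. The *Hba-a2* to *Hba-a1* ratio of Control replicate 5 was low, at −6.587 on the log2 scale.

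Among the listed blood cell markers, 6 genes passed the test of the interaction of DOX and tumor in edgeR. Its log2 value was −3.882 (adjusted p = 0.0192) for *S100a9*, −4.32 (adjusted p = 0.0288) for *S100a8*, −7.535 (adjusted p = 0.0129) for *Retnlg*, −5.742 (adjusted p = 0.0331) for *Mmp8* and −3.558 (adjusted p = 0.0351) for *Cxcr2*, all neutrophil markers, and −7.598 (adjusted p = 0.0192) for *Cd3e*, on the T cell list. The other CD3 chains on that list, *Cd3d* and *Cd3g*, were too low to be tested and were not high in DOX, at 0 to 2 and 0 to 3 counts per library. *Retnlg* and *Mmp8* had 0 or 1 counts in every Control library, so the size of their values depends on the fit's handling of counts near 0. With 1 library left out in turn the call was lost in 8 of 21 fits for *Mmp8*, 8 of 21 for *Cxcr2*, 4 of 21 for *S100a8* and 2 of 21 for *Cd3e*, whose adjusted p was 0.0504 without DOX replicate 4 and 0.0532 without Tb replicate 5. DESeq2 gave no adjusted p for *Cd3e*, which had a median of 2.1 FPKM and a highest value of 66.7 FPKM, in replicate 4, in DOX. With the replicate number as a block, *Retnlg* alone of the 6 stayed called (adjusted p = 0.0336), and the adjusted p of the others were 0.0554 to 0.106. The summed B and T cell list was 1.999 to 3.66 CPM in Control and 6.22 to 312 CPM in DOX.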

How the results depend on the processing

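The fitted directions of the 5 tested genes in DOX against Control and Tb-DOX against Tb held under median-ratio scaling, no filter, DESeq2, the replicate block and each library left out, while Tb-DOX against DOX turned in sign for *Hba-a2* and *Hbb-bt* without DOX replicate 2, alone or with Control replicate 3. Without a filter on low values 2128 genes were called in DOX against Control (1392 with it), 825 in Tb against Control (504) and 247 in Tb-DOX against Tb (155), and of the erythroid and heme lists 4, 2 and 3 genes (2, 2 and 1), and 1 in the interaction (0). With the replicate block 250 genes were called in the interaction in place of 544, although the numbers pair no libraries; the cause was not tested. With DESeq2 the lists had 1 interaction call, *Slc2a1*. With each library left out, calls ranged over 1206 to 1537 in DOX against Control, 381 to 606 in Tb against Control, 656 to 911 in Tb-DOX against DOX, 83 to 238 in Tb-DOX against Tb (83 without Tb-DOX replicate 5, 102 without Tb-DOX replicate 1, 238 without Tb replicate 6) and 318 to 751 in the interaction (318 without DOX replicate 3, 339 without DOX replicate 4, 352 without Tb-DOX replicate 1). List calls ranged over 2 to 4 in DOX against Control (4 without DOX replicate 5), 1 to 3 in Tb against Control, 0 to 1 in Tb-DOX against Tb (0 without Tb replicate 2, Tb replicate 4 or Tb-DOX replicate 5) and 0 to 1 in the interaction (1 without Tb replicate 1). In Tb against Control they fell from 2 to 1 under median-ratio scaling and with Control replicate 3 and DOX replicate 2 both left out, where *Tfrc* was lost. Of the ratios in Tb against Control, *Hba-a2* to *Hba-a1* moved from 0.01 to −0.00632 on the log2 scale with a pseudocount of 1 and over −0.223 to 0.0893 with each library left out, and *Slc4a1* to globin over 1.79 to 2.40. Without any 1 Control library the call of *Slc4a1* to globin was lost (exact permutation test, adjusted p = 0.081 over the 17 comparisons). Its unadjusted p was then the smallest that 4 against 6 libraries allow. Depth limits *Hba-a2*, *Hbb-bt* and *Slc4a1* in the DOX-treated groups.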
